A study of Mus musculus with 2 samples.

Results

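The oxygen-sensing core of the hypoxia-inducible factor (HIF) pathway was followed in embryonic mouse kidney. It was taken as a list of 10 named genes: the alpha subunits Hif1a, Epas1 and Hif3a, the beta subunits Arnt and Arnt2, the prolyl hydroxylases Egln1, Egln2 and Egln3, the ubiquitin ligase subunit Vhl, and the hormone gene Epo. All 10 were matched by symbol among the 43346 mouse genes of the deposited tables. Total RNA was sequenced from 1 group, embryonic kidney at 15.5 days of gestation from healthy B6NCrl mice, with male and female embryos pooled. The replicate 1 library came from the kidneys of 78 embryos and the replicate 2 library from those of 62, each made from 10 ng of RNA. The design holds no treatment, no genotype and no other oxygen level, so it allows comparisons between the genes, between their transcripts and between the 2 pools, and none between conditions.

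In the HIF pathway an alpha subunit and a beta subunit bind DNA together and switch on genes that adapt cells to low oxygen. When oxygen is plentiful, EGLN enzymes hydroxylate prolines of the alpha subunit, the VHL protein binds the modified proline and the alpha subunit is degraded, so much of the control acts on protein rather than on RNA. In the adult kidney the pathway governs the making of erythropoietin, the hormone that drives red cell formation, whereas in the fetus the liver is the main source of that hormone.

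The sites on which this oxygen control acts differ between the alpha subunits, and they are shown because the RNA of these genes is set side by side here. A proline that EGLN enzymes modify lies in a run of a leucine, a pair of any residues, then leucine, alanine and proline. Translation of the annotated transcripts found this run at 2 places in Hif1a, 2 in Epas1 and 1 in Hif3a. The coding bases of each site are given on build GRCm38 in the sense of the gene, with the codon of the proline in capitals.
Hif1a proline 402, chr12:73939689-73939709 (+): ctcactctgctggctCCAgct
Hif1a proline 577, chr12:73941976-73941996 (+): ttggagatgctggctCCCtat
Epas1 proline 405, chr17:86824570-86824590 (+): ctggcccagttggccCCCacc
Epas1 proline 530, chr17:86827513-86827533 (+): ttggagaccttggcaCCCtac
Hif3a proline 489, chr7:17041202-17041222 (-): ttggagatgctggccCCCtac
The asparagine that HIF1AN (factor inhibiting HIF) hydroxylates in the C-terminal activation domain was looked for as aspartate, cysteine, glutamate, valine, asparagine. It was found once in Hif1a and once in Epas1, and in no annotated transcript of Hif3a. Its codon is in capitals.
Hif1a asparagine 813, chr12:73945617-73945634 (+): gattgtgaagttAATgct
Epas1 asparagine 851, chr17:86831016-86831033 (+): gactgtgaggtgAACgtg
Over the residues that aligned, the Hif1a and Epas1 proteins (836 and 874 residues) were 52.0% identical, Hif1a and Hif3a (664 residues) 43.2%, and Epas1 and Hif3a 45.9%.

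Levels are given as TPM, a relative abundance adjusted for transcript length, which allows genes to be compared. A gene was counted as detected where neither library fell below 1 TPM. Of the 10 HIF genes 9 were detected, and all 9 also reached 5 TPM in both. Of all mouse genes 34.9% were detected, and of the 21474 protein-coding genes 62.3%. The median over the 10 genes was 13.2 TPM (replicate 1) and 15.2 TPM (replicate 2), beside 5.13 and 5.34 TPM over all protein-coding genes. It was below the median of protein-coding genes detected in both libraries, which was 19.37 and 19.51 TPM. The 2 libraries held 36244861 and 39415002 expected counts, the quantifier's estimates of reads, and their levels correlated across detected genes with a Pearson's r of 0.992, genes not being independent replicates.

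**Figure D1:**
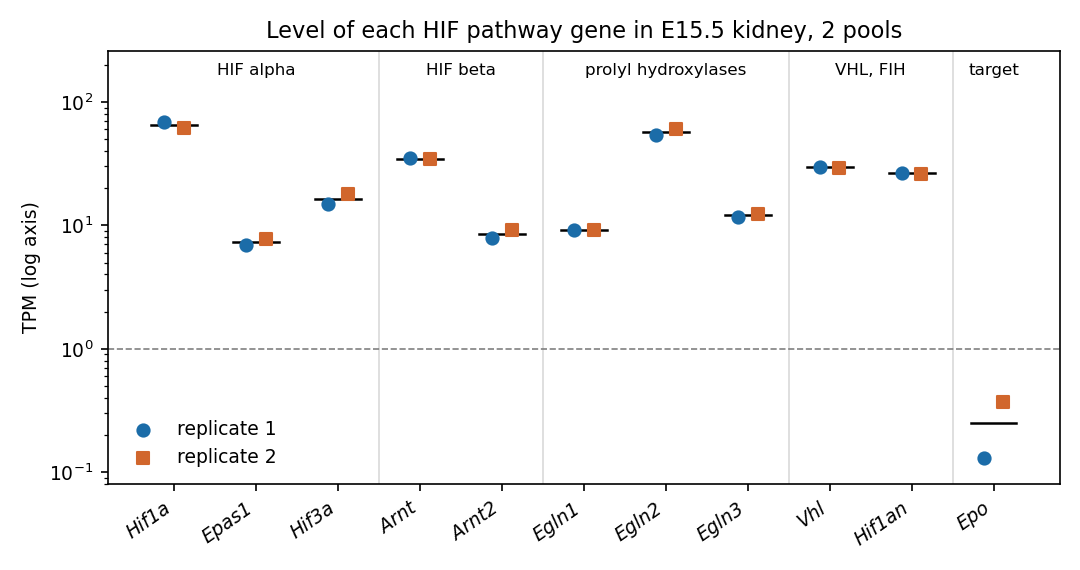
TPM (log axis) of the 10 HIF pathway genes and of Hif1an in the replicate 1 library (circles) and the replicate 2 library (squares), with the mean as a bar and the detection limit of 1 TPM as a dashed line. Hif1a and Egln2 stand highest, at 65.2 and 57.1 TPM on average, and Epo alone lies below the dashed line.

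The largest share of alpha subunit RNA came from Hif1a. Hif1a encodes HIF-1 alpha, the widely expressed alpha subunit (ENSMUSG00000021109.9, chr12:73901375-73947530, plus strand). Its level was 68.43 TPM in replicate 1 and 62.02 TPM in replicate 2 (65.2 ± 4.53, SD, n = 2), from 7148 and 6935 expected counts. That placed Hif1a above 88.2% of protein-coding genes.

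Hif3a encodes HIF-3 alpha, whose products can oppose the other alpha subunits (chr7:17031507-17062427, minus strand). It stood at 14.8 and 17.96 TPM (16.4 ± 2.23, SD, n = 2), from 1809 and 2379 expected counts. Epas1 encodes HIF-2 alpha, the alpha subunit best known in endothelium and in erythropoietin-producing cells (chr17:86753700-86833410, plus strand), and was the lowest of the alpha subunits at 6.92 and 7.69 TPM (7.305 ± 0.544, SD, n = 2). The order Hif1a, Hif3a, Epas1 was the same in both pools.

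Of the summed TPM of the alpha subunits, 90.15 in replicate 1 and 87.67 in replicate 2, Hif1a took 73.3% ± 3.65 (SD, n = 2), Hif3a 18.5% ± 2.88 and Epas1 8.22% ± 0.775. Hif1a was 9.89-fold above Epas1 in replicate 1 and 8.07-fold in replicate 2, a difference on the log2(TPM + 1) scale of 2.995 ± 0.193 (SD, n = 2). Hif1a exceeded Hif3a by a TPM ratio of 4.04 ± 0.828, and Hif3a exceeded Epas1 by 2.24 ± 0.139 (SD, n = 2 each).

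Replicate error was read from all genes, since the design gives no test with a p-value. For genes grouped by mean level, with edges at 1, 3, 10, 30 and 100 TPM, it was the value that 95% of absolute log2 ratios between the pools did not exceed. This was 0.92 for genes at 1 to 3 TPM, 0.79 at 3 to 10, 0.37 at 10 to 30, 0.27 at 30 to 100 and 0.25 above. A pair of genes was called different where its difference in log2(TPM + 1) had 1 sign throughout and was larger, in each library, than the error at the level of the lower gene. For a lower gene under 1 TPM, the error at 1 to 3 TPM was used. The rule covers spread between the pools only. A bias particular to a gene that recurs in both libraries is not measured by it. The 3 alpha subunits were all called different from each other by this rule.

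Among the beta subunits, Arnt lay above Arnt2. Arnt, the broadly expressed partner of all alpha subunits (chr3:95434388-95497240, plus strand), stood at 35.22 and 34.35 TPM (34.8 ± 0.615, SD, n = 2), from 3195 and 3401 expected counts. Arnt2, a close relative best known from brain (chr7:84246278-84410176, minus strand), stood at 7.95 and 9.16 TPM (8.555 ± 0.856, SD, n = 2), from 1146 and 1422 expected counts. The 2 encoded proteins were 66.1% identical over aligned residues.

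Arnt made up 80.3% ± 1.86 of the summed beta subunit TPM (SD, n = 2), and the pair was called different, with a TPM ratio of 4.09 ± 0.481. Arnt also lay below Hif1a, which was 1.87-fold ± 0.0972 higher (SD, n = 2). The sum over the alpha subunits was 2.05-fold ± 0.0518 that over the beta subunits (SD, n = 2). The beta subunits also pair with other factors of the same family, so the ratio does not count HIF dimers.

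Egln2 gave most of the prolyl hydroxylase RNA. Egln2 encodes PHD1, an enzyme found mainly in the nucleus (chr7:27158658-27166802, minus strand). It reached 53.59 TPM in the replicate 1 library and 60.69 TPM in the replicate 2 library (57.1 ± 5.02, SD, n = 2), from 2596 and 3151 expected counts. Egln3, which encodes PHD3 and is itself a HIF target (chr12:54178981-54203860, minus strand), stood at 11.69 and 12.41 TPM (12.05 ± 0.509, SD, n = 2). Egln1, which encodes PHD2, the main enzyme setting HIF-1 alpha stability in normal oxygen (chr8:124908587-124949324, minus strand), stood at 9.18 and 9.22 TPM (9.2 ± 0.0283, SD, n = 2).

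Egln2 held 72.8% ± 1.24 of the summed hydroxylase TPM, Egln3 15.4% ± 0.442 and Egln1 11.8% ± 0.798 (SD, n = 2 each). The TPM ratio of Egln2 to Egln3 was 4.74 ± 0.216 and that of Egln2 to Egln1 was 6.21 ± 0.527 (SD, n = 2 each), and both pairs were called different. Egln3 was above Egln1 in both libraries, by 0.32 and 0.39 in log2(TPM + 1), which is less than the replicate error of 0.79 at that level. The encoded proteins of 400, 419 and 239 residues (Egln1, Egln2 and Egln3) were 53.1% identical between Egln1 and Egln2, 60.9% between Egln1 and Egln3 and 58.2% between Egln2 and Egln3.

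Vhl, the subunit that recognises the hydroxylated proline (chr6:113623959-113631633, plus strand), stood at 29.93 and 29.12 TPM (29.5 ± 0.573, SD, n = 2), from 1974 and 2068 expected counts. Hif1a was 2.21-fold ± 0.111 above Vhl (SD, n = 2), and the pair was called different. Arnt and Vhl differed by 0.23 in log2(TPM + 1) in each library, under the replicate error of 0.37.

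Hif1an, the asparagine hydroxylase that blocks the C-terminal activation domain of HIF alpha and is not one of the 10 (chr19:44562850-44576274, plus strand), was at 26.51 and 26.18 TPM (26.3 ± 0.233, SD, n = 2). Its coding transcript Hif1an-201 held 73.3% ± 3.61 of that TPM (SD, n = 2), and the rest fell to Hif1an-202, a transcript without a coding sequence. By expected counts Hif1an-202 held 4.95% in replicate 1 and 3.86% in replicate 2.

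Epo, the erythropoietin gene (ENSMUSG00000029711.9, chr5:137483020-137533242, minus strand), was the one HIF pathway gene below 1 TPM. It stood at 0.13 TPM in the replicate 1 library and 0.37 TPM in the replicate 2 library, from 2 and 6 expected counts. The exact Poisson intervals at 95% are 0.242 to 7.22 counts in replicate 1 and 2.20 to 13.1 in replicate 2. The count ratio of replicate 1 over replicate 2, scaled to library size, was 0.362 with an exact interval from 0.0358 to 2.03, so a difference between the pools was not detectable at this depth. All Epo counts fell on 1 of the 3 annotated transcripts, Epo-201. Held to the replicate error of genes at 1 to 3 TPM, since Epo lies below that range, Epo was called lower than each of the other 9 genes.

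Markers of other tissues and cell types were detected in these pools, and some differed between them. Whether such cells came from outside the kidney was not tested. The 10 liver markers, all detected, summed to 288 TPM in the replicate 1 library and 559 TPM in the replicate 2 library, and 7 of the 10 were past 1.5-fold. The liver list shares Hnf4a with the erythropoietin list described below. Adrenal cortex markers (6 of 6 detected) summed to 44.9 and 149 TPM, and chromaffin cell markers (7 of 8) to 32.4 and 112 TPM. Neuron markers (5 of 6) summed to 37.8 and 72.5 TPM. Each of these sums was higher in replicate 2. The skeletal muscle sum (7 of 7) ran the other way, at 435.6 and 247 TPM. Within the liver, chromaffin and neuron lists, 1 detected gene each was higher in replicate 1. The 10 endothelial markers were all detected, at 504 and 537 TPM in sum. The 8 red cell markers summed to 21729 and 24730 TPM, and the 10 kidney markers to 473 and 471 TPM. None of the endothelial or kidney markers was past 1.5-fold, while 2 of the red cell markers were, higher in replicate 2. No gene of these 8 lists was at 0 counts in both libraries.

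The levels of Egln2, Hif3a, Egln3, Arnt2, Epas1 and Egln1, and the few counts of Epo, were higher in the replicate 2 library, as were the liver, adrenal, neuron, endothelial and red cell sums. Those of Hif1a, Arnt and Vhl were higher in the replicate 1 library, as was the skeletal muscle sum. The kidney sums were nearly equal, and 7 of the 10 kidney markers were higher in replicate 2 and 3 in replicate 1. What part these cells had in the levels of the HIF genes was not tested. In bulk tissue, fewer cells of a type and less RNA per cell cannot be told apart.

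Differences between the pools in the HIF genes were set beside those of all detected genes. Of the 9 detected genes, 3 were higher in replicate 1 (Hif1a, Arnt and Vhl) and 6 in replicate 2 (Egln2, Hif3a, Egln3, Arnt2, Epas1 and Egln1), of which Egln1 changed sides with the scaling. Absolute log2 ratios ran from 0.0063 for Egln1 to 0.28 for Hif3a, with a median of 0.14, beside 0.11 over all detected genes. Those of Hif1a, Hif3a, Egln2 and Arnt2 lay above the median of genes at their level. Those of Arnt, Vhl, Epas1, Egln1 and Egln3 lay below it. None of the 9 passed 1.5-fold, beside 5.18% of the 15108 genes detected in both libraries, and none passed the replicate error at its own level. At such a share, 0 of 9 does not set these genes apart from others.

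The count ratio of replicate 1 over replicate 2 for Hif3a was 0.827, with an exact interval at 95% from 0.777 to 0.879. For Hif1a it was 1.12, from 1.08 to 1.16, and for Egln2 0.896, from 0.85 to 0.944. Such intervals left out 1 for 5 of the 9 genes, the other 2 being Epas1 (0.831 to 0.995) and Arnt2 (0.810 to 0.948). For these 5 the gap between the pools was thus larger than counting error, while it stayed within the spread that genes of the same level showed. The share of all detected genes with such an interval was not computed, so the count of 5 does not set these genes apart. Counts were scaled to library totals only, and the upper bound of Epas1 lay close to 1. The sign for Egln1 was not stable, since its log2 ratio of -0.0063 in TPM became 0.011 in CPM, counts relative to a library's total, after TMM scaling, 0.015 with DESeq2's size factors and 0.0070 in FPKM.

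**Figure D2:**
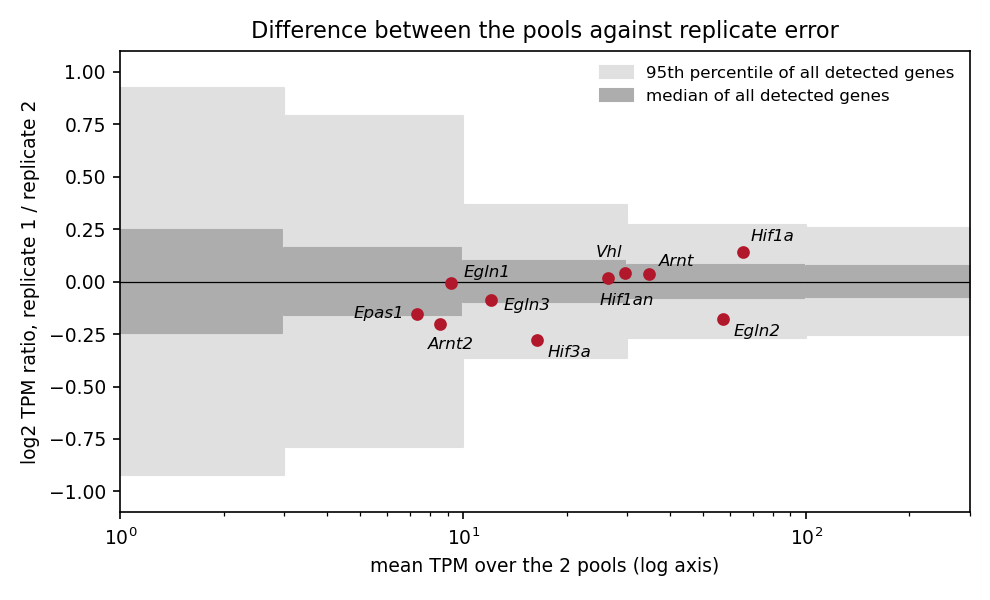
Log2 TPM ratio of replicate 1 over replicate 2 against mean TPM (log axis) for the 9 detected HIF pathway genes and Hif1an, with the median (dark grey) and the 95th percentile (light grey) of the absolute ratio over all detected genes in each range of mean TPM. Each of the 10 points lies inside the light band, with Hif3a the farthest from 0 at -0.28.

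The order of the 10 genes by mean TPM was Hif1a, Egln2, Arnt, Vhl, Hif3a, Egln3, Egln1, Arnt2, Epas1 and Epo. Of the 36 pairs among the 9 detected genes, 26 were called different, beside 82.2% of all pairs of protein-coding genes detected in both libraries. All 9 pairs with Epo were called, which follows from Epo lying below 1 TPM while the other 9 genes reached 5 TPM. No share over all genes was computed for pairs with an undetected gene or for neighbours in the order. Of the 9 neighbours in the order, 3 pairs were called: Egln2 over Arnt (0.70 ± 0.15), Vhl over Hif3a (0.82 ± 0.21) and Epas1 over Epo (2.74 ± 0.10, log2(TPM + 1) difference, SD, n = 2). The levels thus fell into 4 steps whose neighbours were called apart.

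The top step held Hif1a and Egln2, which differed by 0.35 in replicate 1 and 0.03 in replicate 2, against a replicate error of 0.27. The next held Arnt and Vhl. The third held Hif3a, Egln3, Egln1, Arnt2 and Epas1, of which neighbours were not called apart, although Hif3a was called above Arnt2 (0.86 ± 0.06) and above Epas1 (1.06 ± 0.09, SD, n = 2 each). Epo formed the lowest step on its own. Hif3a over Egln1 was close to the limit, at 0.63 and 0.89 against 0.79.

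**Figure D3:**
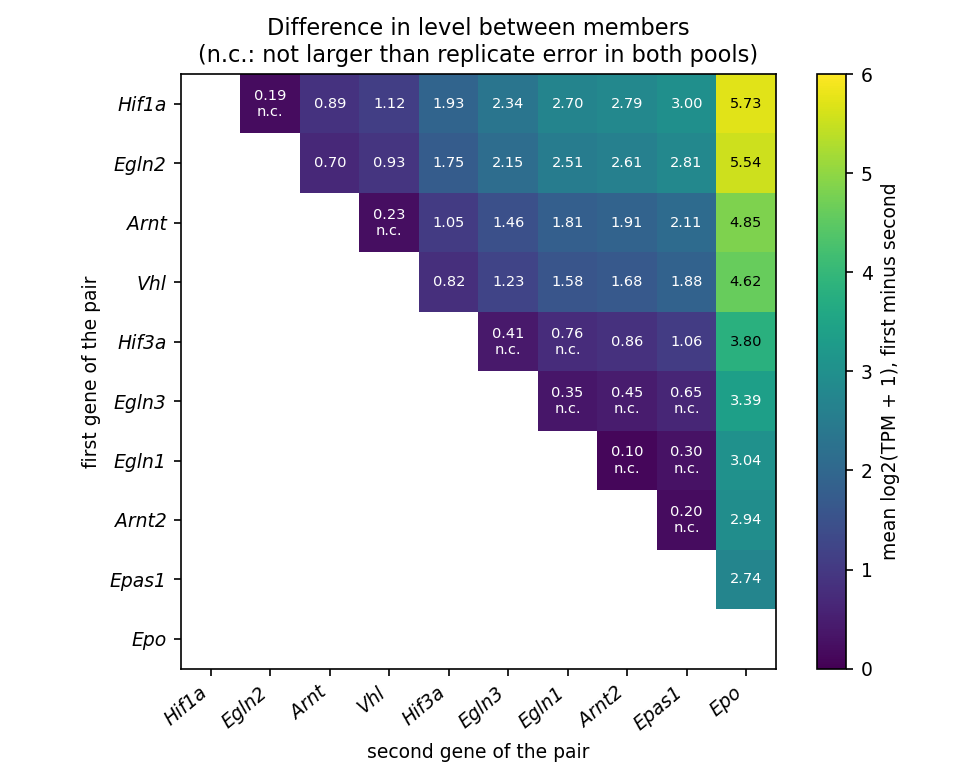
Mean difference in log2(TPM + 1) over the 2 libraries for each pair of HIF pathway genes, first gene (row) minus second (column), with genes in order of mean TPM and "n.c." where the difference was not larger than replicate error in both pools. The uncalled pairs are Hif1a with Egln2, Arnt with Vhl, and 8 pairs among Hif3a, Egln3, Egln1, Arnt2 and Epas1.

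The 10 genes had 34 annotated transcripts in the deposited tables, of which 27 held counts. The authors' quantifier gives each transcript a percent of its gene's TPM. Each of the 5 detected genes with several transcripts had the same leading transcript in both libraries, beside 91.9% of 9760 detected protein-coding genes with several transcripts. Arnt2, Egln1, Egln3 and Epas1 had 1 annotated transcript each, and Vhl-201 held 100% of Vhl in both libraries.

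Hif1a-201, which starts at position 73907904, held 72.31% of Hif1a in replicate 1 and 67.42% in replicate 2 (69.9% ± 3.46, SD, n = 2). Hif1a-202, which starts upstream at position 73901375 from another first exon, held 20.45% and 24.96% (22.7% ± 3.19). Both encode the hydroxylation sites printed above, at prolines 402 and 577 of Hif1a-201 and at prolines 390 and 551 of Hif1a-202. Coding transcripts with both prolines took 92.6% ± 0.269 of the Hif1a TPM (SD, n = 2). Transcripts without a coding sequence took 6.70% in replicate 1 and 6.77% in replicate 2. That share rests on few reads, since the 2 such transcripts are short, at 693 and 484 bases. They held 46.19 and 13.28 expected counts in replicate 1 and 56.77 and 5.88 in replicate 2. By expected counts in place of TPM, Hif1a-201 held 76.0% of the gene.

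The 2 proteins differ in 2 places. Hif1a-202 lacks the first 12 residues of Hif1a-201, since its coding sequence opens at a later start codon, and it lacks a segment of 14 residues between the hydroxylated prolines. The first line gives the opening 60 coding bases of Hif1a-201 with the start codons of Hif1a-201 and Hif1a-202 in capitals. The second gives, in capitals, the 42 bases at chr12:73941688-73941729 that Hif1a-202 skips, with coding bases on each side.
Hif1a-201 opening: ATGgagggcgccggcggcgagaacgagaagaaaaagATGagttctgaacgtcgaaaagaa
Hif1a-201 segment: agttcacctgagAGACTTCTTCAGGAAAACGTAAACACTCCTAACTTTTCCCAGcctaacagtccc

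Hif3a RNA was also assigned to transcripts with different first exons. The 2 main ones, Hif3a-202 and Hif3a-201, also end at different positions (17031507 and 17035734) and differ in length (6402 and 2206 bases). Reads over the first exons were not examined, so these shares do not measure first exon use. Hif3a-202, which starts at position 17062427, held 71.83% and 72.79% (72.3% ± 0.679, SD, n = 2), and Hif3a-201, which starts downstream at position 17056679, held 21.01% and 19.69% (20.4% ± 0.933). The first residues differ between these transcripts while the single proline site is kept, at proline 489 in Hif3a-202 and 487 in Hif3a-201. Transcripts with that site took 92.7% ± 0.255 of the Hif3a TPM (SD, n = 2). The short transcript Hif3a-203 had 7.16% and 6.5%, from 7.14 and 8.46 expected counts, so its share rests on few reads. By expected counts in place of TPM, Hif3a-202 held 91.0% of the gene. Hif3a-201 held 8.87% by counts in replicate 1 and 8.26% in replicate 2. The opening 45 coding bases of each follow, with the start codon in capitals.
Hif3a-202 opening: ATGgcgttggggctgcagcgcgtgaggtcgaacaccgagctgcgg
Hif3a-201 opening: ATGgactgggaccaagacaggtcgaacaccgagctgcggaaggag

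Arnt-202 led Arnt with 65.65% and 70.67% (68.2% ± 3.55, SD, n = 2), and by expected counts it held 77.2%. Arnt-203, which carries an extra exon of 45 bases (15 residues, chr3:95466793-95466837) near the start of the protein, held 10.96% and 11.93% (11.4% ± 0.686). By expected counts Arnt-203 held 7.70% and 8.26%, and Arnt-205 held 12.1% and 7.64%. Arnt-203 also ends at another position than Arnt-202 (95495567 and 95497240), so its share does not measure inclusion of the exon. The other 9 annotated Arnt transcripts held at most 10.8% of the TPM each in either library. Those without a coding sequence took 6.445% ± 0.0778 in sum. The extra exon is in capitals between coding bases of its neighbours.
Arnt-203 exon: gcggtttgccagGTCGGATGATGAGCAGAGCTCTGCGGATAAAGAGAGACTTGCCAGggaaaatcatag
The transcript ENSMUST00000080058.6 held 95.08% and 95.63% of Egln2 (95.4% ± 0.389, SD, n = 2). ENSMUST00000108382.1, which starts at position 27166413 rather than 27166802 and encodes a protein of the same 419 residues, held 3.93% and 2.55%.

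**Figure D4:**
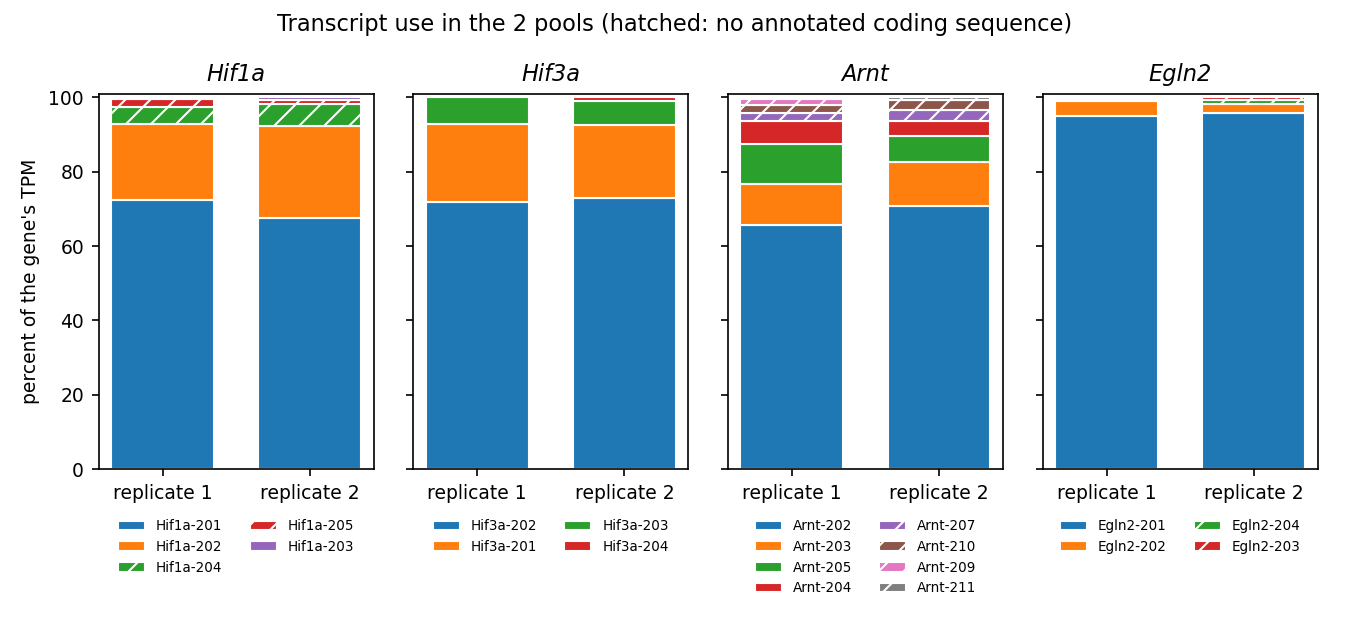
Percent of each gene's TPM held by each transcript of Hif1a, Hif3a, Arnt and Egln2 in the replicate 1 and replicate 2 libraries, with transcripts that have no annotated coding sequence hatched. The same transcript leads in both pools, from 65.65% for Arnt-202 in replicate 1 to 95.63% for the Egln2 transcript ENSMUST00000080058.6 in replicate 2.

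HIF itself binds DNA at a core of A or G followed by CGTG. Promoter sequence from RefSeq on build GRCm38.p6, from 250 bases before to 50 bases after a start, was held for 9 of the 10 genes, Epas1 being without an entry, and for 2 starts of Egln2. Matches to ACGTG or GCGTG on either strand were counted, so that the palindrome CACGTG counts on both. Of the 10 windows 8 held a match and 5 held at least 2, beside 43.8% and 20.6% of the 32851 promoters of the same length. Egln2 held 6 at the start used by its leading transcript, Hif1a and Epo 3 each, Hif3a and Egln1 2 each, and Arnt and Egln3 1 each. No match was found in the windows of Arnt2 and Vhl. Base composition moves with such counts. The windows held 49.3% to 86% G and C, beside a median of 52.7% over all promoters. Only the second Egln2 window, at 49.3%, lay below that median. It held 4 places where C is followed by G, and the others 14 to 60, beside a median of 7 over all promoters. Windows were not compared with promoters of like composition. A match is a string of letters and not a bound site.

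The promoters of Hif1a and Egln2, the most abundant alpha subunit and hydroxylase, are printed in the sense of the gene, with matches in capitals. Each runs from 250 bases before the RefSeq start and takes in the first 10 bases from that start. For Hif1a that start is position 73907867, upstream of the annotated start of Hif1a-201 at 73907904, so its printed window holds no base of Hif1a-201.
Hif1a promoter, chr12:73907617-73907876 (+): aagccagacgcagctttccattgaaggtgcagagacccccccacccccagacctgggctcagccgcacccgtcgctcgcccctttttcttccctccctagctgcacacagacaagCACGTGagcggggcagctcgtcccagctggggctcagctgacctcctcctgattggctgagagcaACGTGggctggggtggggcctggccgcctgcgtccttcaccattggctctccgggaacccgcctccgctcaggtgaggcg
Egln2 promoter, chr7:27166793-27167052 (-): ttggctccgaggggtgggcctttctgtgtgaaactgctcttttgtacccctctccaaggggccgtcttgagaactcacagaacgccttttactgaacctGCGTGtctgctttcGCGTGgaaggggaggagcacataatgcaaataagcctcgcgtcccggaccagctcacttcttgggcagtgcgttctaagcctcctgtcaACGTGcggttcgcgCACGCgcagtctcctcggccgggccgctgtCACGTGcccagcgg

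Around the core, proteins that turn HIF over or work with it were measured on a list of 20 genes. This list and those below were chosen with earlier results of these data known. Their detected shares are thus given as description only. All 20 were detected, beside 62.3% of protein-coding genes, with a list median of 58.5 ± 1.59 TPM (SD, n = 2). None was past 1.5-fold between the pools. The chaperones Hsp90ab1 and Hsp90aa1, which hold HIF alpha before it is degraded, led at 1528 ± 23.6 and 809 ± 22.4 TPM, followed by Elob at 755 ± 34.8 TPM (SD, n = 2 each). Elob, Eloc, Cul2 and Rbx1 encode the partners of VHL in its ubiquitin ligase, and all stood above Vhl. Eloc was at 274.87 and 241.09 TPM, Rbx1 at 224.41 and 197.84 TPM and Cul2 at 60.03 and 55.87 TPM. This list shares Cited1 with the kidney markers.

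Genes known as HIF targets were mostly present at this age. Of 36 such genes on the list 35 were detected, beside 62.3% of protein-coding genes. The list median was 30.1 ± 1.22 TPM (SD, n = 2), beside 19.4 TPM over protein-coding genes detected in both libraries. None of the list was past 1.5-fold between the pools. The highest were Mif, a cytokine, at 1638 ± 27.3 TPM, and the glycolytic enzymes Eno1 and Ldha at 1563 ± 34.3 and 1308 ± 3.78 TPM (SD, n = 2 each). These genes are also driven by factors other than HIF, and HIF activity was not measured in these libraries.

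**Figure D5:**
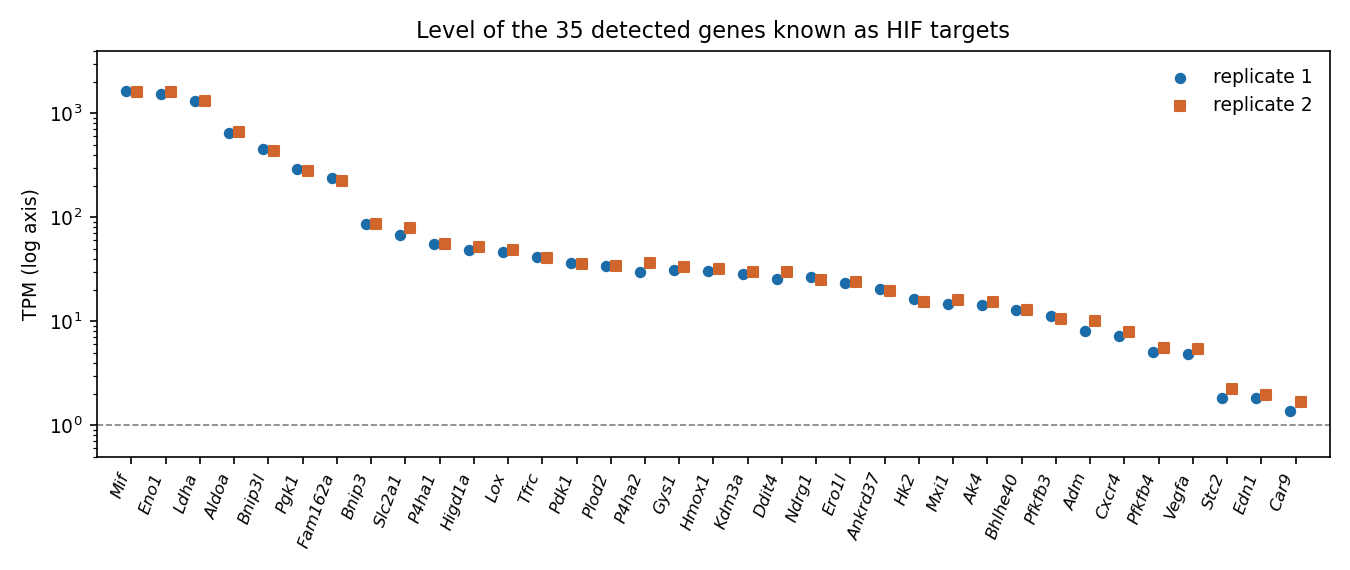
TPM (log axis) of the 35 detected genes known as HIF targets in the replicate 1 library (circles) and the replicate 2 library (squares), ordered by mean TPM, with the detection limit of 1 TPM as a dashed line. Levels run from Mif at 1638 TPM to Car9, a carbonic anhydrase, at 1.525 TPM on average.

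The list around erythropoietin held its receptor, the signalling genes below it and genes of the cells that make it. All 10 were detected, beside 62.3% of protein-coding genes. The list median was 15.7 ± 0.336 TPM (SD, n = 2), while Epo itself averaged 0.25 TPM. Gata3 and Gata2, which encode GATA transcription factors, stood at 84.1 ± 6.095 and 24.6 ± 5.41 TPM, and Pdgfrb, the receptor of pericytes and stromal cells, at 43.8 ± 3.32 TPM (SD, n = 2 each). Epor, the erythropoietin receptor, was at 7.91 and 8.79 TPM. Nt5e, the ectonucleotidase found on kidney fibroblasts that can make erythropoietin, was at 1.58 and 2.69 TPM and was the 1 gene of the list past 1.5-fold, higher in replicate 2.

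Sequence overlap bears on few of these values. Whether counting used strand is not given in the sources used here. An antisense gene, Gm15283, shares 330 exonic bases with Hif1a and stood at 0.43 and 0.52 TPM. Egln2 shares 11 bases with Cyp2t4, at 0.06 and 0.03 TPM. Gm49321 overlaps Hif1a by 148 bases and Gm30873 overlaps Arnt2 by 214 bases, and these genes were not analysed here. Epo-202 shares 104 bases with Gnb2, but held 0 counts. Apart from Gm30873, no other gene matched a transcript of the HIF genes at 90% identity over 200 bases or more.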

How the data were processed

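Total RNA was sequenced from 2 pooled kidney libraries of 1 group. The authors aligned reads to mm10 and counted them on GENCODE M4, per the submitters' text files. Neither the aligner and quantifier nor the use of strand is given in the sources used here. The deposited expected counts, estimated by the authors' quantifier per gene and per transcript, need not be whole. The deposited TPM values are adjusted for length and scaled to a fixed total within each library, and the deposited FPKM values were used as an alternative. Spike-ins are part of that total and held 5.78% of it in replicate 1 and 7.34% in replicate 2. The deposited percent per transcript is the authors' share of the gene's TPM. The deposited bounds of the TPM interval, a signal with no stated level, were read and are not reported.

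Names and coordinates came from GENCODE M21, matched by identifier for 42462 of 43346 genes (98.0%). No column of another sample was present (0 columns). Totals were 36244861 and 39415002 expected counts. Intervals cover counting error only, and the libraries are separate pools of embryos.

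With 2 libraries no p was computed. Named were the 10 genes and Hif1an, each gene's leading transcript and those at 10% or more in both libraries, and, per list, the 3 highest, any gene below 1 TPM in both libraries and any past 1.5-fold. Eloc, Rbx1, Cul2, Epor, Hif3a-203, Arnt-205 and ENSMUST00000108382.1 were named outside this rule, after their values were seen. Car9 was named for its place at the low end of a plot. The values of 1 gene that falls under the rule are not reported here. The genes and lists were chosen with earlier results of these data known. Tables were read with Python 3.11.15, pandas 2.3.3 and numpy 2.4.6, intervals used scipy 1.17.1, sequences Biopython 1.88, and copies were searched with blastn 2.17.0. CPM used TMM factors of edgeR 4.0.16, and size factors came from DESeq2 1.42.0, on expected counts rounded to whole numbers. The scripts were tested on simulated data. No protein table was used, so motif positions come from translated M21 transcripts. Alternatives were 0.5 and 5 TPM for detection, a pseudocount of 0.1, FPKM, TPM rescaled over nuclear genes, posterior mean TPM, 1 replicate error over all genes, list means, shares of expected counts, no filter on low values, and each library alone.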

Additional observations from a re-analysis of the deposited data

How the results depend on the processing

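The log2 ratio of Egln1 between the pools changed sign, from -0.0063 in TPM to 0.011 with TMM factors, 0.015 with DESeq2's size factors and 0.0070 in FPKM, which leaves 5 detected genes higher in replicate 2. No called result changed direction. With TPM rescaled over nuclear genes, 8 of the 10 levels moved by more than their SD, as for Hif1a from 65.2 to 72.2 TPM. Of the HIF genes 9 were detected at 0.5 TPM and at 5 TPM, in each library alone, and, in alternatives chosen after seeing the data, with posterior mean TPM and TPM rescaled over nuclear genes. The count of called pairs among the 9 was 26 with a pseudocount of 0.1, with FPKM and with those added alternatives, 27 with 1 replicate error over all genes, and 27 to 28 in each library alone. With 1 replicate error over all genes, Egln2 over Arnt (0.70) was no longer called, because replicate 1 fell under the higher limit, while Hif3a over Egln1 (0.76) and Egln3 over Epas1 (0.65) were called. In replicate 1 alone Hif1a over Egln2 (0.35) was called, and in replicate 2 alone Hif3a over Egln3 (0.50) and Hif3a over Egln1 (0.89). With no filter on low values, 1 of the 10 genes, Epo, was past 1.5-fold between the pools, in place of 0. At 5 TPM the bHLH-PAS relatives detected came to 3, in place of 9. Means in place of medians gave 259 TPM for the turnover list, 191 for HIF targets, 22.4 for the erythropoietin list, 4.57 for the bHLH-PAS relatives and 25.7 for the oxygenases. No paired analysis was possible because there is only 1 group. Depth limits Epo, at 2 and 6 counts, and 2 libraries leave 1 degree of freedom for each SD.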

Other observations

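The alpha and beta subunits belong to a larger family of transcription factors and coactivators with basic helix-loop-helix and PAS domains. Of 14 other genes of that family, 9 were detected (64.3%), near the 62.3% of all protein-coding genes. The list median was 2.77 ± 0.240 TPM (SD, n = 2). The coactivators Ncoa2 and Ncoa3 led at 18.6 ± 0.594 and 14.9 ± 0.877 TPM, followed by the clock gene Arntl at 7.405 ± 0.870 TPM (SD, n = 2 each). The clock gene paralog Arntl2 was at 1.35 and 2.64 TPM, past 1.5-fold and higher in replicate 2. Below 1 TPM in both libraries were Npas2 (0.96 and 0.75), Npas3 (0.85 and 0.71), Ahrr (0.37 and 0.42), Npas1 (0.39 and 0.29) and Npas4 (0.03 and 0.14). Beside these, Hif1a averaged 65.2, Arnt 34.8, Hif3a 16.4, Arnt2 8.555 and Epas1 7.305 TPM, and these differences were not set against replicate error.

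The EGLN enzymes belong to the oxygenases that use 2-oxoglutarate and oxygen. All 15 other such genes on the list were detected, beside 62.3% of protein-coding genes. The list median was 26.6 ± 0.658 TPM (SD, n = 2), and none was past 1.5-fold between the pools. Jmjd6, a lysyl hydroxylase, led at 60.5 ± 1.29 TPM, followed by P4ha1, a collagen prolyl hydroxylase subunit, at 55.7 ± 0.417 TPM and Tet3, which oxidises methylated cytosine, at 39.5 ± 0.382 TPM (SD, n = 2 each). P4ha1 and P4ha2 are also on the list of HIF targets.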
